A study of Mus musculus with 6 samples.

Results

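The TAM receptors Tyro3, Axl and Mertk and their ligands Gas6 and Pros1 were measured in polyadenylated RNA of sciatic nerve, which carries motor and sensory axons to the leg, from mice at postnatal day 14. All 5 genes were found by symbol among the 55335 genes of the table, and all 5 passed the filter for testing, a mean of at least 1 FPKM over the 6 libraries. FPKM are fragment numbers scaled for transcript length and library size, so levels of different genes can be set side by side. The icKO nerves (n = 3) came from RhoAfl/fl ChATCreERT2+ mice and the flox nerves (n = 3) from RhoAfl/fl mice, so both groups carry homozygous floxed RhoA, the gene of a small GTPase, and a Cre allele is named for the icKO group only. CreERT2 is a drug-inducible recombinase, here driven from the gene of choline acetyltransferase and thus active in cholinergic neurons such as spinal motoneurons, whose cell bodies lie outside the nerve. The Schwann cells, fibroblasts, vascular cells and macrophages that supply most nerve RNA are therefore not cells in which this driver is known to act. The labels give no induction schedule, no drug treatment of the flox mice, no sex, and no statement of whether each library is from its own animal. The spread between libraries may therefore be partly technical. The 5 genes were chosen by family membership with the FPKM of this same comparison already known, in which Mertk was higher in icKO nerves relative to most other macrophage markers. Their differences between the groups are therefore given as descriptions, with no p-value.

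TAM receptors are tyrosine kinases named after Tyro3, Axl and Mertk. Their ligands are the vitamin K-dependent proteins Gas6 and protein S (Pros1), which bind phosphatidylserine on dying cells or membrane debris with one end and a receptor with the other. Macrophages use the system to engulf dead cells and to dampen inflammatory signalling. In peripheral nerve, Schwann cells as well as macrophages take up myelin debris after injury, and Mertk and Axl act in that uptake.

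The sum of 10 myelinating Schwann cell markers was 32630 to 37480 FPKM in icKO and 30940 to 32600 FPKM in flox libraries, so the libraries carried the transcripts of nerve. The depth was estimated from the smallest FPKM steps at 17200000 to 20600000 fragments per library. Rhoa was at 36.4, 33.6 and 33.2 FPKM in icKO libraries and at 36.5, 39.0 and 38.0 FPKM in flox libraries, and the driver gene Chat was listed at 0 in 5 libraries. Flox replicate 2 had Xist at 46.1 FPKM and no Ddx3y, while the other 5 libraries had Ddx3y at 12.5 to 16.1 FPKM, so only the flox group held both sexes. Skeletal muscle markers summed to 10.5, 24.4 and 1538 FPKM in icKO libraries and to 1339, 260 and 352 FPKM in flox libraries, so icKO replicate 3 and flox replicate 1 carried the most muscle transcript.

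The 3 receptor genes were higher in icKO nerves, in every icKO library above every flox library. Across all 12860 tested genes 28.4% showed that pattern. Mertk had the largest difference of the family, Tyro3 the next and Axl the smallest of the receptors, while the ligands Gas6 and Pros1 differed less and their groups overlapped. With the threshold used across the whole table (limma, Benjamini-Hochberg adjusted p under 0.05), 3 of the 5 genes were called higher and none lower, against 20.8% of all tested genes called higher, 22.1% called lower and 42.9% called in either direction. At an unadjusted p under 0.05 in limma the counts were 4 higher and 0 lower. The share of all tested genes at that looser threshold is not given here. Because the same comparison entered the choice of the genes, nothing further is read from these counts. In RNA of whole nerve, a change in the number of cells of a type and a change in RNA per cell cannot be told apart.

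Mertk (ENSMUSG00000014361), the receptor best known from the clearance of dying cells by macrophages, was at 36.01, 50.6 and 43.0 FPKM in icKO libraries and at 17.2, 13.2 and 14.2 FPKM in flox libraries. The lowest icKO value lay well above the highest flox value. The mean was 43.2 ± 7.31 FPKM in icKO and 14.9 ± 2.11 FPKM in flox nerves (SD, n = 3 each), a ratio of 2.91 and a difference of 1.47 (SE 0.15) on the log2(FPKM + 1) scale, on which differences of low genes are understated. Of the genes annotated as overlapping it, the antisense gene Gm14011 was listed at 0 in all 6 libraries, and the small nucleolar RNA gene Gm23172 on the same strand was at no more than 2.83 FPKM.

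Axl (ENSMUSG00000002602), the receptor with the highest affinity for Gas6, was at 49.9, 53.9 and 43.2 FPKM in icKO libraries, against 21.9, 35.7 and 30.3 FPKM in flox libraries. The groups did not overlap, but the flox libraries differed among themselves by more than the gap between the groups. Mean levels were 49.0 ± 5.42 and 29.3 ± 6.99 FPKM in icKO and flox nerves (SD, n = 3 each), a ratio of 1.67 and a log2 difference of 0.74 (SE 0.18). Axl no longer passed the threshold of the whole table without icKO replicate 1 or without icKO replicate 2.

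Tyro3 (ENSMUSG00000027298), the receptor of the family most associated with neural tissue, had the lowest level of the 5 genes. It was at 3.78, 4.30 and 3.29 FPKM in icKO libraries and at 1.06, 1.65 and 1.42 FPKM in flox libraries, with no overlap. Group means were 3.79 ± 0.51 FPKM in icKO and 1.38 ± 0.30 FPKM in flox nerves (SD, n = 3 each). The ratio of means was 2.76, and the log2 difference of 1.01 (SE 0.13) was 1.41 with a pseudocount of 0.1 and 1.47 with one of 0.01. Its lowest value, in flox replicate 1, rested on an estimated 81 fragments, while the lowest estimate of any other member was 773.

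Gas6 (ENSMUSG00000031451), the ligand that binds all 3 receptors, was the most abundant member. Its level was 90.8, 85.8 and 79.4 FPKM in icKO libraries and 65.5, 84.9 and 72.4 FPKM in flox libraries. Flox replicate 2, the library without Ddx3y, lay within the icKO range, so the groups overlapped. The means of 85.3 ± 5.71 FPKM in icKO and 74.3 ± 9.86 FPKM in flox nerves (SD, n = 3 each) gave a ratio of 1.148 and a log2 difference of 0.20 (SE 0.12). The log2 difference was 0.12 without flox replicate 1, 0.11 with the skeletal muscle markers as a covariate and 0.30 without flox replicate 2. The annotation places Tmem255b on the opposite strand across part of Gas6, at no more than 1.75 FPKM, and how strand was handled in counting is not given in the sources used here.

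Pros1 (ENSMUSG00000022912), the gene of protein S, an anticoagulant that activates Tyro3 and Mertk, was at 23.4, 17.4 and 26.3 FPKM in icKO libraries and at 13.6, 18.6 and 14.5 FPKM in flox libraries. The overlap came from icKO replicate 2 and flox replicate 2. Pros1 averaged 22.4 ± 4.56 FPKM in icKO and 15.6 ± 2.63 FPKM in flox nerves (SD, n = 3 each), a ratio of 1.44 and a log2 difference of 0.49 (SE 0.18). That difference was 0.28 without the library richest in muscle transcripts of each group, 0.61 without flox replicate 2 and 0.65 without icKO replicate 2.

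**Figure D1:**
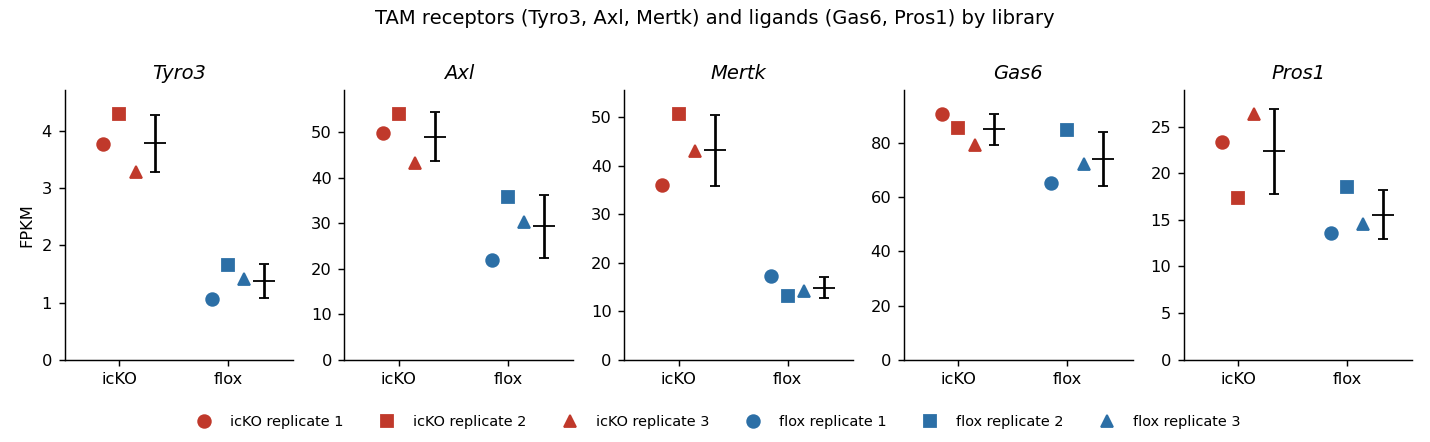
FPKM of the 5 genes in each library, icKO in red and flox in blue, with a separate linear axis from 0 for each gene; marker shapes give the replicate number, and bars beside the points give the mean and SD of 3 libraries. The icKO points of Tyro3, Axl and Mertk lie above all flox points, while those of Gas6 and Pros1 overlap with flox.

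The order of levels differed between the groups. In icKO nerves Gas6 was the highest at 79.4 to 90.8 FPKM. Axl at 43.2 to 53.9 FPKM and Mertk at 36.01 to 50.6 FPKM followed and overlapped. Pros1 at 17.4 to 26.3 FPKM and Tyro3 at 3.29 to 4.30 FPKM came last. In flox nerves Gas6 at 65.5 to 84.9 FPKM was again the highest, with Axl next at 21.9 to 35.7 FPKM. There the neighbours that overlapped were Pros1 at 13.6 to 18.6 FPKM and Mertk at 13.2 to 17.2 FPKM, above Tyro3 at 1.06 to 1.65 FPKM. Mertk was thus near Axl in icKO nerves and near Pros1 in flox nerves.

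The 250 bases before the annotated start of each receptor gene are shown because the 3 receptors were higher together. They come from RefSeq on build GRCm38.p6, another build than the GRCm39 named for the data, and symbols matched for 5 of 5 members. Each reads 5′ to 3′ on the strand of the gene, in lower case, with matches to GGGCGG or its reverse complement CCGCCC in capitals. That motif is known as the GC box. The windows are chr2:128698665-128698914 on the plus strand for Mertk, chr7:25788734-25788983 on the minus strand for Axl and chr2:119799264-119799513 on the plus strand for Tyro3.
Mertk: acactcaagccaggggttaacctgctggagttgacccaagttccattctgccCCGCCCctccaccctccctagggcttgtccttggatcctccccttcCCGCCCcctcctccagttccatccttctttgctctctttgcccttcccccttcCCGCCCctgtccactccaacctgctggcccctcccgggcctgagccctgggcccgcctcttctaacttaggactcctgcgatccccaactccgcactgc
Axl: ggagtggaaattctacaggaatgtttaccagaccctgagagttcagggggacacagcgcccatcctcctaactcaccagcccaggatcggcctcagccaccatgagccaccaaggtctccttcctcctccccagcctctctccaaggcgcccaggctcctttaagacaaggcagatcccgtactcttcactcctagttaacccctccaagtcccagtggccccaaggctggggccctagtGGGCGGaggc
Tyro3: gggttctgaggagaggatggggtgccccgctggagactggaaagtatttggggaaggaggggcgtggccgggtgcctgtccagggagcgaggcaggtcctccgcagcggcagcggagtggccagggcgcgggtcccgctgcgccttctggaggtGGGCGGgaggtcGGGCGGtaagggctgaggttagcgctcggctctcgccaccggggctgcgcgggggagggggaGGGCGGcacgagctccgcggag

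On both strands together the Mertk window held 3 GC box matches, the Axl window 1 and the Tyro3 window 3, and the windows of Gas6 and Pros1 held 4 and 5, some of those of Pros1 overlapping each other. Of all 32851 windows of that length in the table, 32.7% held at least 1. CCAAT, found in 33.8% of all windows, and TATAAA, found in 12.4%, were searched on both strands and had no match in the 5 windows. With no match to either, a GC box match could not overlap another searched motif. The GC content was 63.6% for Mertk, 60.0% for Axl and 73.2% for Tyro3, against a median of 52.4% over all windows. No measurement of binding or methylation was used here, so the matches describe these letters only.

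Summed over the 3 receptors, transcript levels were 89.7, 109 and 89.4 FPKM in icKO libraries and 40.1, 50.6 and 45.9 FPKM in flox libraries. Summed ligand levels were 114, 103 and 106 FPKM in icKO libraries and 79.1, 104 and 87.0 FPKM in flox libraries. The receptor sums did not overlap and the ligand sums did. There were 1.27, 0.95 and 1.18 ligand FPKM per receptor FPKM in icKO libraries, against 1.97, 2.05 and 1.90 in flox libraries, means of 1.13 ± 0.17 and 1.97 ± 0.08 (SD, n = 3 each). Every icKO ratio was below every flox ratio.

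Within the receptor sum, Mertk made up 40.2%, 46.5% and 48.0% in icKO libraries and 42.9%, 26.1% and 30.9% in flox libraries. Flox replicate 1 lay inside the icKO range, so these shares overlapped. Axl made up 55.6%, 49.5% and 48.3% in icKO libraries, against 54.4%, 70.7% and 66.1% in flox libraries, also with overlap. Tyro3 held 4.22%, 3.95% and 3.67% in icKO libraries and 2.63%, 3.27% and 3.09% in flox libraries, without overlap. Of the ligand sum Gas6 made up 79.2% ± 4.04 in icKO and 82.7% ± 0.61 in flox nerves (SD, n = 3 each), a difference smaller than the SD of the icKO libraries.

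**Figure D2:**
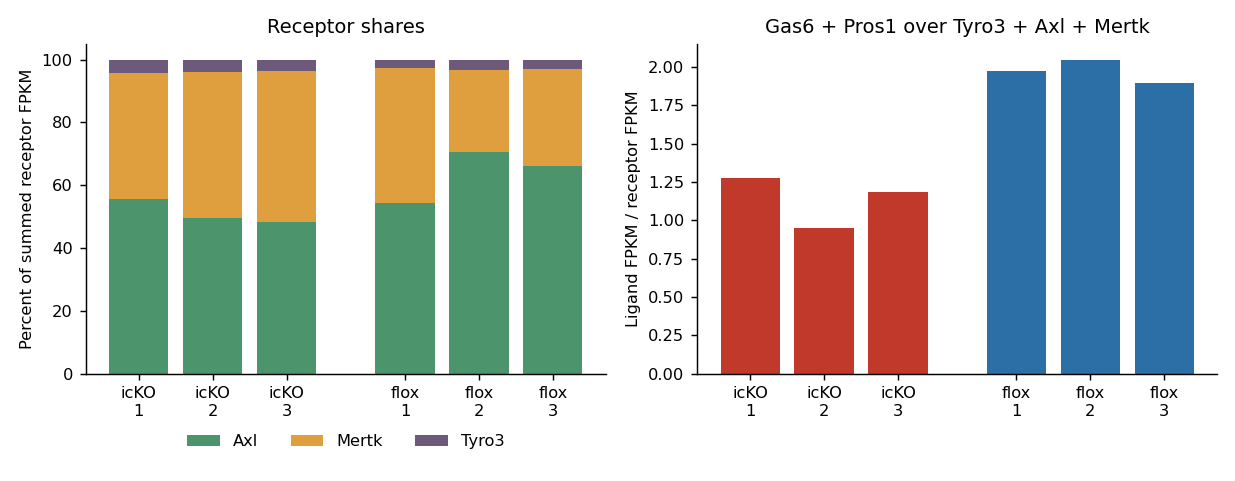
Left, share of each receptor in the summed FPKM of Tyro3, Axl and Mertk, in percent, per library. Right, summed FPKM of Gas6 and Pros1 divided by summed FPKM of the 3 receptors; the icKO libraries lie at 0.95 to 1.27 and the flox libraries at 1.90 to 2.05.

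The flox libraries varied in a way that set Mertk apart from the other 4 genes. Axl, Tyro3, Gas6 and Pros1 were each lowest in flox replicate 1 and highest in flox replicate 2, whereas Mertk was highest in flox replicate 1 and lowest in flox replicate 2. The summed level of 28 macrophage markers was 188, 186 and 186 FPKM in icKO libraries and 155, 335 and 256 FPKM in flox libraries, again lowest in flox replicate 1 and highest in flox replicate 2. The summed level of 10 fibroblast markers had the same order among the flox libraries, at 1055, 1022 and 1068 FPKM in icKO and 1205, 2301 and 1997 FPKM in flox. Skeletal muscle markers had the opposite extreme, with flox replicate 1 highest. The part of these other transcripts in the levels of the 5 genes was not tested.

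Of 28 macrophage markers other than Mertk 20 passed the filter. Because the levels of Mertk against these markers entered the choice of the genes, the marker values are a description, and nothing further is read from their counts. With the threshold used across the whole table, 0 of these 20 were called higher and 1 lower. At that threshold 20.8% of all tested genes were called higher and 22.1% lower. At an unadjusted p under 0.05 in limma, 0 of the 20 were higher and 2 lower, with no share over all tested genes given here. The median log2 difference of the 20 markers was -0.35, beside -0.01 over all tested genes. The marker called lower was Folr2, a folate receptor of tissue-resident macrophages, at 0.47, 0.57 and 0.40 FPKM in icKO libraries and at 1.54, 4.02 and 3.47 FPKM in flox libraries. Of the abundant markers, the lysozyme gene Lyz2 was at 41.7, 41.8 and 38.8 FPKM in icKO and at 44.5, 93.2 and 42.4 FPKM in flox libraries. The complement gene C1qa was at 24.4, 24.1 and 23.9 FPKM in icKO and 20.6, 41.4 and 36.6 FPKM in flox libraries, and C1qb at 27.2, 31.0 and 27.1 FPKM in icKO and 20.7, 47.0 and 41.7 FPKM in flox libraries. None of these 3 passed. Some markers had higher icKO means, and 3 of them are named here after their values were seen. Trem2, a lipid receptor gene below the filter, was at 1.162, 1.19 and 1.31 FPKM in icKO and 0.549, 0.995 and 0.772 FPKM in flox libraries, without overlap. The scavenger receptor gene Cd163 averaged 5.08 ± 0.998 FPKM in icKO and 3.51 ± 1.44 FPKM in flox nerves, and the protease gene Ctss 12.8 ± 1.27 FPKM in icKO and 11.03 ± 4.34 FPKM in flox nerves (SD, n = 3 each), both with overlap. Most other markers below the filter went the other way. Aif1, Fcgr1, Itgam, Ptprc, Siglec1 and Timd4 were lower in every icKO library than in every flox library, and Msr1 overlapped. How many of all genes below the filter showed such separation is not given here, so nothing is read from it. Without flox replicate 1, which had the lowest summed macrophage level of all libraries and the highest muscle level of the flox libraries, 13 of 21 tested markers were called lower and none higher, where 19.2% of all genes tested in that fit were called lower, and the median log2 difference of the markers was -0.61.

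Set against the mean log2(FPKM + 1) of the 20 tested markers, Mertk stood 2.43, 2.95 and 2.67 higher in icKO libraries and 1.67, 0.34 and 0.64 higher in flox libraries. The mean margin was 2.68 ± 0.26 in icKO and 0.88 ± 0.70 in flox nerves (SD, n = 3 each), with no overlap. By level, Mertk exceeded 27, 28 and 28 of the 28 markers in icKO libraries and 25, 22 and 24 in flox libraries. Csf1r, the receptor on which most macrophages depend, was chosen for comparison after its values were seen. There were 4.18, 7.18 and 5.63 Mertk FPKM per Csf1r FPKM in icKO libraries, against 3.71, 1.096 and 1.25 in flox libraries.

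**Figure D3:**
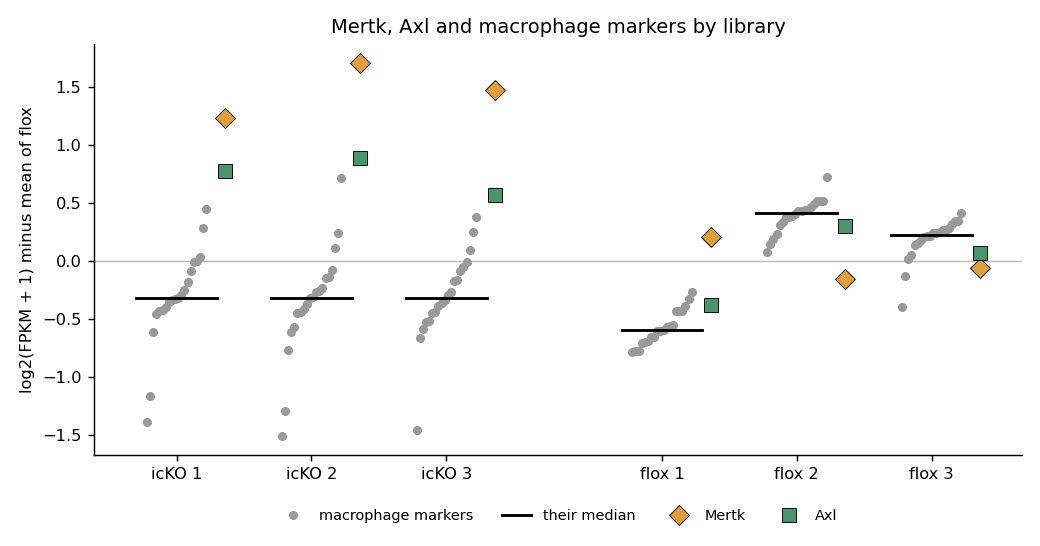
Log2(FPKM + 1) minus the gene's mean over the 3 flox libraries, for each of 20 tested macrophage markers (grey), their median (black line), Mertk (orange) and Axl (green) in each library. Mertk lies above every marker in the 3 icKO libraries and in flox replicate 1, and below the marker median in flox replicates 2 and 3.

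Other cell types of the nerve were followed by summed marker FPKM. The sum of 8 markers of nonmyelinating and immature Schwann cells was 141 to 183 FPKM in icKO and 83.7 to 98.7 FPKM in flox libraries, and 5 of these 8 were called higher and 1 lower, beside 20.8% and 22.1% of all tested genes. Of the 10 myelinating markers, 3 were called higher and 2 lower. Endothelial markers summed to 81.5 to 96.3 FPKM in icKO and 103 to 106 FPKM in flox libraries, mural cell markers to 173 to 207 FPKM in icKO and 239 to 340 FPKM in flox libraries, and adipocyte markers to 104 to 172 FPKM in icKO and 471 to 576 FPKM in flox libraries. Perineurial markers summed to 191 to 213 FPKM in icKO and 201 to 206 FPKM in flox libraries. Neutrophil, T and mast cell markers together reached no more than 9.30 FPKM in any library, and Ly6g was listed at 0 in all 6. The sums of both Schwann cell lists were higher in every icKO library than in every flox library, as were the receptor sums, and their part in the receptor levels was not tested. The endothelial, mural and adipocyte sums were lower in every icKO library, with 1 of 8 endothelial markers called higher and 2 lower, 3 of 8 mural markers called lower and 8 of 8 adipocyte markers called lower. Of 6 tested perineurial markers 1 was called lower.

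The wider TAM pathway, from ligand maturation to signalling, held 39 genes beside the members, of which 33 passed the filter. Of these, 9 rose, 9 fell and 15 did not pass, rose and fell standing here for genes called higher and called lower in icKO nerves, where 20.8% of all tested genes rose and 22.1% fell, and the median log2 difference was 0.03 against -0.01 over all tested genes. Without flox replicate 3, 5 rose, but in that fit only 1857 of all 12799 tested genes rose, against 2670 of 12860 in the main fit. Vitamin K-dependent carboxylation gives Gas6 and protein S the domain that binds phosphatidylserine. The carboxylase gene Ggcx fell, at 3.78, 2.93 and 4.83 FPKM in icKO and 7.08, 9.36 and 8.08 FPKM in flox libraries (log2 difference -0.93, SE 0.16, adjusted p = 0.00532 by limma with Benjamini-Hochberg adjustment). Vkorc1, which recycles vitamin K, fell to 21.4 ± 1.92 FPKM in icKO, against 44.4 ± 3.08 FPKM in flox nerves (SD, n = 3 each, log2 difference -1.02, SE 0.10, limma adjusted p = 0.000782). Its paralogue Vkorc1l1 did not pass, at 16.9 ± 1.73 FPKM in icKO and 15.2 ± 4.48 FPKM in flox nerves. Both listed genes of enzymes that cut TAM receptors from the cell surface fell. The sheddase gene Adam10 was at 74.01, 75.04 and 75.97 FPKM in icKO and 139, 138 and 154 FPKM in flox libraries (limma adjusted p = 0.000666), and Adam17 at 6.77, 5.77 and 8.27 FPKM in icKO and 12.6, 10.8 and 12.8 FPKM in flox libraries (limma adjusted p = 0.00599).

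Of 15 tested genes of adaptors and signalling, 4 rose, 1 fell and 10 did not pass, where 20.8% of all tested genes rose and 22.1% fell. Elmo1, an adaptor that activates Rac during engulfment, rose to 8.92 ± 1.02 FPKM in icKO, against 5.98 ± 0.31 FPKM in flox nerves, and the exchange factor gene Vav2 to 8.42 ± 0.05 FPKM, against 4.50 ± 0.48 FPKM (SD, n = 3 each, limma, Benjamini-Hochberg adjusted p = 0.00732 and 0.00126). The adaptor genes Bcar1 and Grb2 also rose and the kinase gene Akt2 fell, but Bcar1 and Akt2 did not pass without flox replicate 2 or without flox replicate 3, and Grb2 passed in 1 of 6 leave-one-out fits. Akt1 was at 39.4 ± 2.62 FPKM in icKO and 38.5 ± 2.98 FPKM in flox nerves. Rac1 was at 28.02, 98.8 and 27.5 FPKM in icKO and at 102, 101 and 32.5 FPKM in flox libraries, a split within both groups.

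Genes around the dampening of innate signalling moved in both directions. In mouse dendritic cells TAM receptors act through the interferon receptor to raise Socs1 and Socs3, suppressors of cytokine signalling. Socs3 rose, at 24.4, 16.6 and 50.4 FPKM in icKO and 8.37, 10.4 and 6.19 FPKM in flox libraries (log2 difference 1.63, SE 0.39, adjusted p = 0.0154 by limma with Benjamini-Hochberg adjustment), but did not pass without flox replicate 3. Twist1, a repressor of cytokine genes, fell, but passed in 2 of 6 leave-one-out fits. Socs1 was below the filter, and the interferon receptor genes Ifnar1 and Ifnar2 did not pass. Lgals3, the gene of galectin-3, a further reported Mertk ligand, rose to 30.3 ± 6.31 FPKM in icKO, against 12.04 ± 3.26 FPKM in flox nerves (SD, n = 3 each, limma adjusted p = 0.00474), while Tub and Tulp1, the other reported ligands on the list, were below the filter.

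Among 7 nuclear receptors and factors reported to control Mertk, 3 rose and 2 fell, where 20.8% of all tested genes rose and 22.1% fell. The liver X receptor genes, known to act on Mertk in mouse macrophages, moved apart. Nr1h2 was at 32.7, 35.4 and 32.8 FPKM in icKO and 19.4, 18.7 and 17.9 FPKM in flox libraries, whereas Nr1h3 was at 4.91, 4.81 and 3.91 FPKM in icKO and 10.2, 10.4 and 10.4 FPKM in flox libraries (limma, Benjamini-Hochberg adjusted p = 0.000769 and 0.000752). Their partner Rxra rose to 20.6 ± 3.65 FPKM in icKO, against 10.9 ± 0.80 FPKM in flox nerves (SD, n = 3 each, limma adjusted p = 0.00325). The glucocorticoid receptor gene Nr3c1 fell to 10.4 ± 3.01 FPKM in icKO, against 18.5 ± 1.84 FPKM in flox nerves (SD, n = 3 each, limma adjusted p = 0.0195). Nr3c1 did not pass without flox replicate 2 or without flox replicate 3, and Rxrb, the remaining gene that rose, passed in 1 of 6 leave-one-out fits.

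Phosphatidylserine is also recognised by routes other than TAM receptors. Of 32 genes of those routes 23 passed the filter, and of these 1 rose, 6 fell and 16 did not pass, where 20.8% of all tested genes rose and 22.1% fell. The median log2 difference was -0.21, beside -0.01 over all tested genes. Itgav, the integrin subunit that binds the bridging protein Mfge8, fell to 3.405 ± 0.50 FPKM in icKO, against 14.3 ± 1.31 FPKM in flox nerves, a difference of -1.80 log2 units with an SE of 0.11 (adjusted p = 0.000364 by limma with Benjamini-Hochberg adjustment). Its partner Itgb3 fell to 1.55 ± 0.13 FPKM in icKO, against 3.84 ± 0.60 FPKM in flox nerves (limma adjusted p = 0.00162), and the other partner, Itgb5, was at 42.0 ± 11.4 FPKM in icKO and 49.5 ± 4.61 FPKM in flox nerves and did not pass. Mfge8 was at 20.3 ± 2.91 FPKM in icKO and 16.1 ± 3.30 FPKM in flox nerves (SD, n = 3 each throughout) and did not pass either. Calr, a chaperone gene whose product is an engulfment signal when on the cell surface, Lrp1, a receptor for it, and Tmem30a, a subunit of the flippases that keep phosphatidylserine on the inner membrane leaflet, also fell, by 1.04, 0.40 and 0.59 on the log2 scale (limma adjusted p = 0.00248, 0.0255 and 0.00315). Lrp1 did not pass without icKO replicate 1 or without flox replicate 2. The scramblase gene Xkr8, which also fell, passed in 0 of 6 leave-one-out fits.

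**Figure D4:**
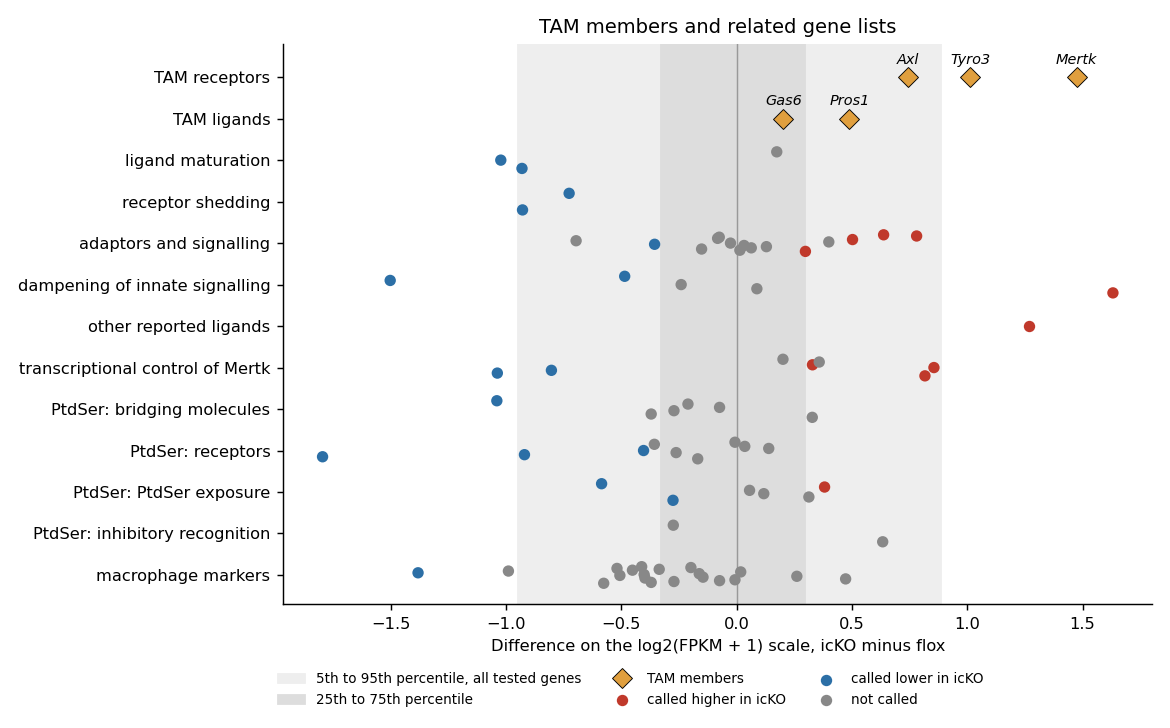
Difference between icKO and flox on the log2(FPKM + 1) scale for the TAM receptors and ligands (diamonds) and for tested genes of related lists by role (PtdSer, phosphatidylserine), with genes called higher in red, called lower in blue and not called in grey. Shading gives the 5th to 95th percentile (-0.95 to 0.89) and the 25th to 75th percentile (-0.33 to 0.30) of all tested genes; Mertk at 1.47 and Tyro3 at 1.01 lie outside the wider band, and Axl at 0.74 and Pros1 at 0.49 inside it.

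The genes whose centred log2 profile over the 6 libraries lay nearest to that of Mertk, by Euclidean distance over 12852 genes, were Gpihbp1, Rbak, Slc35b3, Rap1gap and Gm9752, at distances of 0.22 to 0.29. Gpihbp1, which anchors lipoprotein lipase on capillary endothelium, was at 6.36, 8.72 and 7.002 FPKM in icKO and 2.04, 1.5997 and 2.04 FPKM in flox libraries. Among the members, Tyro3 was the 414th nearest to Mertk and Axl the 1324th. The profile of Axl had Man2b1, a lysosomal mannosidase gene, Rnase4, Sulf2, Pdgfra and Gjb5 nearest, at 0.20 to 0.25, with Tyro3 as the 59th nearest. Pdgfra, a receptor gene that marks nerve fibroblasts, was at 18.2, 19.8 and 17.9 FPKM in icKO and 8.30, 14.9 and 13.1 FPKM in flox libraries. It was the only fibroblast marker of 10 called higher, while 4 were called lower, beside 20.8% and 22.1% of all tested genes. Those called lower were Lum, Dpt, Col1a1 and Col1a2, with log2 differences of -2.70, -1.69, -0.85 and -0.56, and the median of the list was -0.52. These 4 were named after their values were seen. Nearest to Gas6 were Man1a, Itga1, Trim62, Ppfia1 and Smndc1, at 0.10 to 0.14. The measure uses the same 6 libraries and the same difference between groups as the rest, so it is a description of likeness only.

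**Figure D5:**
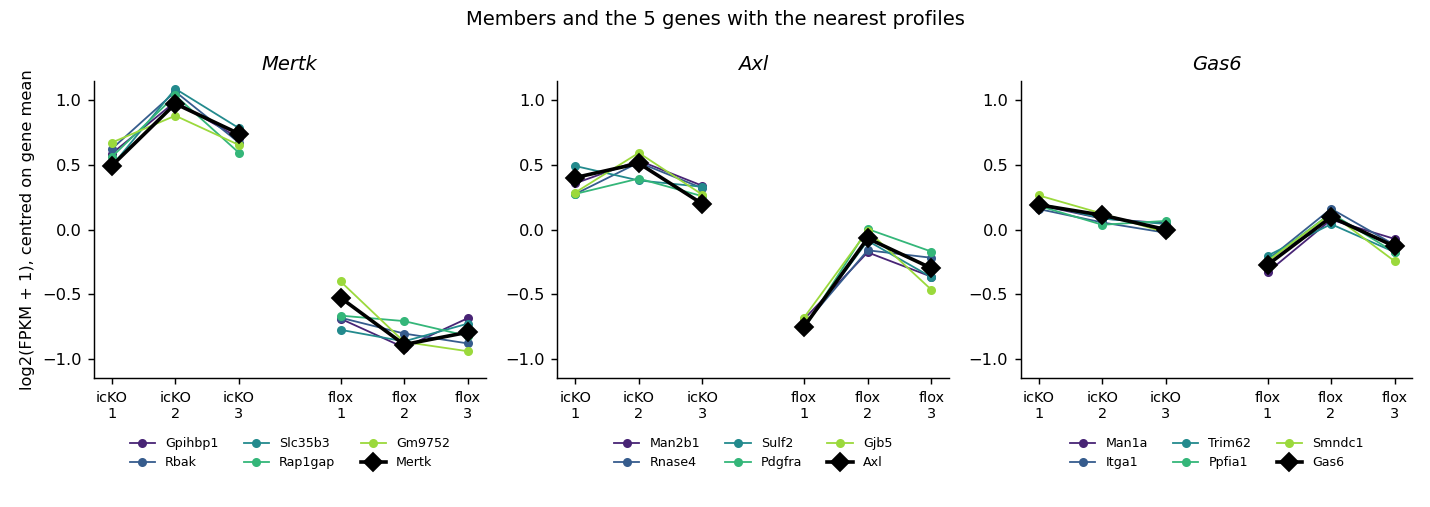
Log2(FPKM + 1) centred on each gene's mean over the 6 libraries, for Mertk, Axl and Gas6 (black) and the 5 genes with the nearest profiles to each (colours). Lines only join libraries of a group; Mertk and its neighbours are highest in icKO replicate 2, and Axl and Gas6 are lowest in flox replicate 1.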

How the data were processed

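FPKM, as the authors deposited them in a single table keyed by Ensembl ID, were the only values used (6 libraries, 3 icKO and 3 flox). StringTie 1.3.1c and STAR are named in the submitters' processing notes, as are build GRCm39, DESeq2 1.16.1 and FastQC 0.11.2, with no role assigned. For the annotation release, strand setting and multi-mapping reads the entry is: not given in the sources used here. Symbols came from GENCODE M21, an annotation of GRCm38, for 55154 IDs.

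The icKO and flox libraries were compared on log2(FPKM + 1) by limma 3.58.1 (R 4.3.3), two-sided, with a variance trend and without covariates, in the 12860 genes whose mean reached 1 FPKM. Benjamini-Hochberg adjustment ran over all of these, and calls needed an adjusted p under 0.05. Rose and fell refer to such calls in icKO relative to flox. P-values cover no more than the spread among these libraries, which may be technical. The table holds no counts, so the depth was estimated from the most frequent low product of FPKM and transcript length in the 34186 genes with 1 annotated transcript, and member fragments from the longest annotated transcript. FPKM estimated by StringTie can shift between transcripts or overlapping genes, and highly abundant transcripts lower the FPKM of the rest. The procedure was run on simulated data with independent noise for each gene, which gives no error rate for these libraries.

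The members, the lists, the tests and the alternatives were chosen with earlier results of these data known. The text names the 5 members, the 5 genes nearest in profile to Mertk, Axl and Gas6, and, from the pathway, phosphatidylserine and macrophage lists, the 5 called genes with the largest difference and the 3 most abundant. Other list genes named were chosen after their values were seen, and some genes that the rule selects are not reported here. Alternatives were other pseudocounts, filters, scalings, limma settings and thresholds, a replicate block, a muscle covariate and fits leaving out libraries.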

Additional observations from a re-analysis of the deposited data

How the results depend on the processing

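No direction of a member's difference reversed. Mertk and Tyro3 passed the table-wide threshold in all 20 and all 19 alternatives in which they were tested, Axl in 18 of 20, Pros1 in 6 and Gas6 in none. Over the alternatives the log2 difference was 1.36 to 1.595 for Mertk, 0.55 to 0.90 for Axl, 0.11 to 0.30 for Gas6 and 0.28 to 0.65 for Pros1. For Tyro3 it was 1.41 and 1.47 with pseudocounts of 0.1 and 0.01, a scale on which low genes are compressed less, and 0.90 at the lowest. The number of genes called was 5516, and 3308 with a filter of 5 FPKM, under which 6888 genes were tested. Leaving out single libraries gave 5 to 9 pathway genes called higher (5 without flox replicate 3) and 0 to 1 phosphatidylserine genes called higher, where 0 was also found with no filter, a filter of 5 FPKM, the muscle covariate or without both muscle-rich libraries. Over all tested genes, 1857 to 2534 were called higher when single libraries were left out, against 2670 in the main fit. Macrophage markers called lower were 2 with no filter, array weights or an adjusted p of 0.1, 0 with a filter of 5 FPKM, 13 without both muscle-rich libraries and 1 to 13 when single libraries were left out (13 without flox replicate 1). Over all tested genes, 2719 of 12829 were called lower without both muscle-rich libraries and 2465 of 12840 without flox replicate 1. The cause of these changes in the marker calls was not tested. With the replicate block 4596 genes were called and 3 members stayed higher; same-numbered libraries correlated at -0.103, 0.043 and -0.055 in their deviations from the group means, so the numbers were not taken to pair them. Scaling moved the median of all genes by under 0.1. The estimated depth limits Tyro3 most.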
